A study of Mus musculus with 10 samples.

Results

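The hormone genes described here encode 4 hormones of the pituitary, Prl, Gh, Pomc and Cga, and 6 peptides made by hypothalamic neurons, Avp, Oxt, Trh, Crh, Pmch and Hcrt. Members were taken by symbol from the annotation of the array, which gave 8 of the 10 genes 12 probe sets, among 12394 genes with a single symbol. Crh and Pmch carried no probe set under that annotation and were not analysed here. The samples were brains of inbred C57BL/6 mice, and the labels name no other genotype and no treatment. Each brain RNA was read on 1 Affymetrix MOE430A array, which measures a transcript by probe sets of short oligonucleotides. There were 4 arrays at 8 weeks of age, 2 labelled male and 2 labelled female, and 6 at 1 week, 3 labelled male and 3 labelled female. The labels number the brains and do not say which parts were dissected, whether the pituitary was attached, or whether each brain was a separate animal, so the p-values measure the spread between these samples.

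The pituitary gland hangs below the hypothalamus on a stalk. Its anterior lobe holds lactotrophs that make prolactin (Prl), somatotrophs that make growth hormone (Gh), corticotrophs that cut corticotropin from the Pomc precursor, and gonadotrophs and thyrotrophs that pair the common alpha subunit (Cga) with the beta subunits Lhb, Fshb and Tshb. Pomc is also made in the intermediate lobe and in neurons of the arcuate nucleus, so unlike Prl and Gh it has a well known source within the brain. Large neurons of the supraoptic and paraventricular nuclei make vasopressin (Avp) and oxytocin (Oxt) and send them down axons into the posterior lobe, while their mRNA stays mostly in the hypothalamic cell bodies. Thyrotropin-releasing hormone (Trh) and corticotropin-releasing hormone (Crh) drive the anterior lobe, and melanin-concentrating hormone (Pmch) and the orexins (Hcrt) come from separate neurons of the lateral hypothalamus.

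The promoter windows of the pituitary hormone genes are shown because the POU factor POU1F1 drives Prl in lactotrophs, and the text below turns on how far the pituitary hormones moved together. The windows are from RefSeq on build GRCm38.p6 and run from 250 bases before to 50 after the start site. Of the 10 genes, 8 had a window in that table and Gh and Crh did not, and the 3 below belong to pituitary members. Capitals mark matches, on either strand, to TATNCAT (the core bound by POU1F1) or TATAAA (the TATA box).
Prl, chr13:27057320-27057619, plus strand: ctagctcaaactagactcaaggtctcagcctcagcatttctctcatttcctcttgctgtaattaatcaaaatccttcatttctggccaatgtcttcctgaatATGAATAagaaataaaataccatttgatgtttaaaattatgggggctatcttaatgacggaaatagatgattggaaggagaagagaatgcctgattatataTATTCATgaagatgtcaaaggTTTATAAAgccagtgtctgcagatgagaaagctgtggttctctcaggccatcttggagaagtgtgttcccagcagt
Pomc, chr12:3954695-3954994, plus strand: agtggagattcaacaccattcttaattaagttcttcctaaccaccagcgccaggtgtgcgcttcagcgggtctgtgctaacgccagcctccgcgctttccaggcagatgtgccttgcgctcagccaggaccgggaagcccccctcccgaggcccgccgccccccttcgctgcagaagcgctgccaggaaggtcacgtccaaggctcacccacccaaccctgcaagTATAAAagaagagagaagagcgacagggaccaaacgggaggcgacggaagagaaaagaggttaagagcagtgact
Cga, chr4:34893529-34893828, plus strand: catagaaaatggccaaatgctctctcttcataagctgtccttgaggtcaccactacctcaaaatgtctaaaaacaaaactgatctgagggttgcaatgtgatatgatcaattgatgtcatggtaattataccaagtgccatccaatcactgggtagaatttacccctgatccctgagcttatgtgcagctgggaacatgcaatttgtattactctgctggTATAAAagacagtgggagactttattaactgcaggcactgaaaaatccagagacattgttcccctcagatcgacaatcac
TATNCAT occurred at 148 and 47 bases before the start site of Prl and in none of the other 7 windows, which do not include Gh, while 8.84% of all 32851 windows of this length held it. TATAAA occurred 24 bases before the start in Prl, where it overlapped a match on the other strand, 25 before in Pomc, 30 before in Cga, 27 before in Pmch and 33 before in Hcrt, which is 5 of the 8 windows, where 13.6% of all windows held it. TAATCC, the core bound by PITX factors, was searched as well and occurred in 0 of the 8 windows, where 7.06% of all windows held it. These are matches of letters and say nothing on which factor was bound.

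The arrays were not equally bright as deposited: trimmed means ran from 254 to 318 at 8 weeks and from 138 to 235 at 1 week. Levels below are therefore quantile-normalized intensities, which have no unit, and a level of 1 probe set is not comparable with that of another. Xist and the Y-linked Eif2s3y followed the sex labels in all 4 arrays at 8 weeks. They went against the label in 4 of the 6 arrays at 1 week, namely replicates 2 and 3 of the male label and 1 and 2 of the female label, and both transcripts were present in replicate 3 of the female label. Arrays are named by their labels throughout. Labels of 1-week arrays therefore serve as names and not as sexes.

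Prl was the member with the clearest difference between ages. At 8 weeks its intensity was 556 and 76.6 in replicates 1 and 2 labelled male and 4909 and 495 in replicates 1 and 2 of the female label. At 1 week it was 8.44, 23.7 and 9.68 in replicates 1 to 3 of the male label and 11.1, 12.2 and 3.94 in replicates 1 to 3 labelled female. Every array at 8 weeks was above every array at 1 week, and the 8-week arrays themselves spanned a 64.1-fold range. The mean was 1509 ± 2277 at 8 weeks (SD, n = 4) and 11.5 ± 6.63 at 1 week (SD, n = 6). On the scale of log2(intensity + 24.2) Prl was 4.14 ± 0.60 (SE) higher at 8 weeks, or 17.6-fold, with a 95% interval from 2.80 to 5.49 (limma, adjusted p = 3.42e-04). Without the brightest array, replicate 1 labelled female, the difference was 3.29 ± 0.46 (limma, adjusted p = 5.87e-04), on the same probe sets. In bulk tissue more cells of a type and more RNA per cell cannot be told apart, nor can either be told from the amount of pituitary tissue in a sample, which was not measured.

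Gh, read by 4 probe sets, differed widely between arrays within both ages. Its brightest probe set read 3659 and 605 in replicates 1 and 2 labelled male and 8002 and 576 in replicates 1 and 2 of the female label at 8 weeks. At 1 week it read 12.1, 11.4 and 13.7 in the arrays of the male label and 574, 1473 and 19.1 in replicates 1 to 3 labelled female. Replicates 1 and 2 of the female label at 1 week thus read about as high as the lower pair of 8-week arrays, or higher, and the other 4 arrays at 1 week were near the bottom of the scale. The ages overlapped. Gh was 4.04 ± 1.00 higher at 8 weeks on the log2 scale (limma, adjusted p = 0.00796), and the other 3 probe sets gave 3.20 to 3.47, with adjusted p from 0.0111 to 0.0196. The same arrays were high on all 4 probe sets. On the dimmest of them, for example, replicates 2 and 1 of the female label at 1 week read 623 and 295 while the 3 arrays labelled male there read 0.79 to 1.40. Across arrays left out in turn the difference of the brightest probe set ran from 3.08, without replicate 1 of the female label at 8 weeks, to 4.97, without replicate 2 of that group (limma, adjusted p from 0.00418 to 0.0386).

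**Figure D1:**
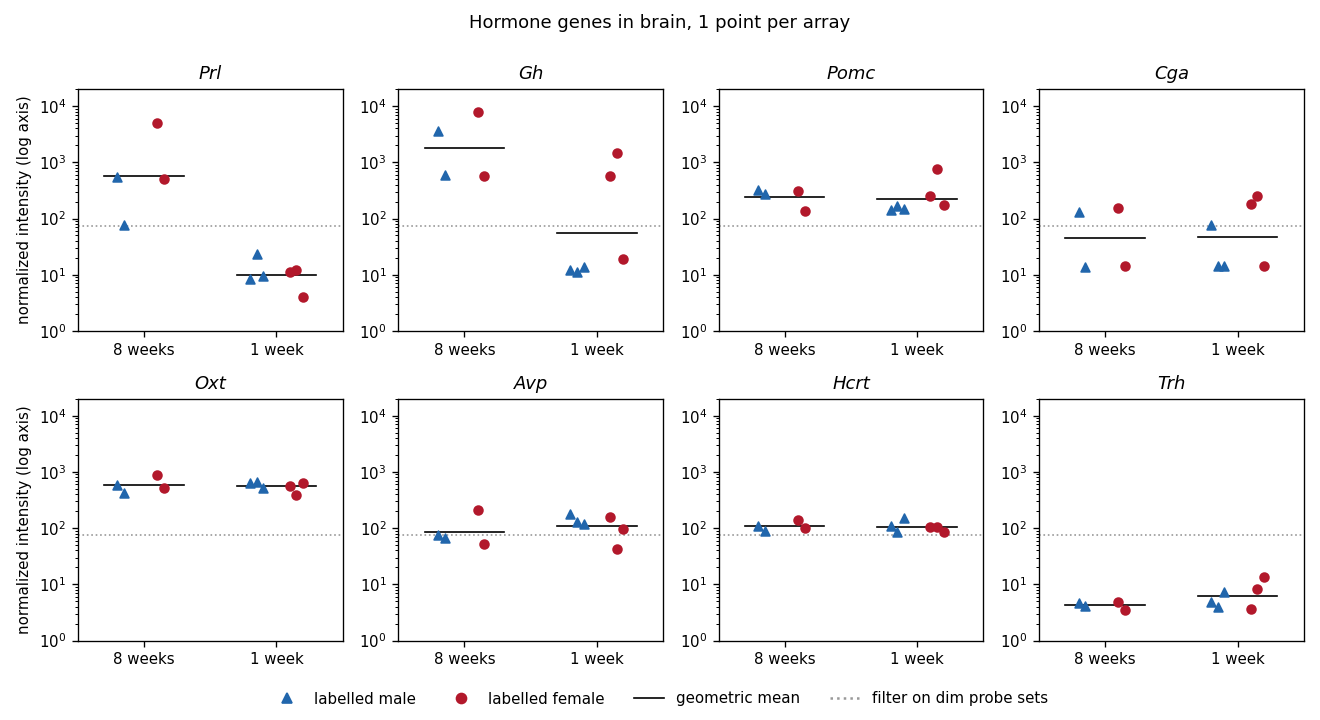
Normalized intensity (log axis) of the representative probe set of each of the 8 hormone genes, with 8 weeks left of 1 week, triangles for arrays labelled male and circles for arrays labelled female, bars for geometric means and a dotted line at 73.9, the filter level. Prl separates the ages, Gh splits the 1-week arrays into 2 high and 4 low ones, and Oxt, Avp and Hcrt lie at like levels at both ages.

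Pomc did not pass for age, and its highest value came from a 1-week array. The brighter of its 2 probe sets read 319 and 269 in replicates 1 and 2 labelled male and 309 and 139 in replicates 1 and 2 of the female label at 8 weeks. At 1 week it read 139.5, 165 and 149 in the arrays of the male label and 254, 763 and 176 in replicates 1 to 3 labelled female. The difference was 0.13 ± 0.34, with a 95% interval from -0.63 to 0.89 (limma, adjusted p = 0.784). The other probe set, which fell under the filter, gave a sharper picture of the same arrays. It read 415 in replicate 2 of the female label at 1 week and 1.14 to 23.3 in the other 5 arrays of that age, and at 8 weeks 2.12 in replicate 2 labelled female against 62.4 to 83.0 in the other 3.

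Cga was dim and fell under the filter, and its arrays were either near 14 or well above it. At 8 weeks it read 131 and 13.5 in replicates 1 and 2 labelled male and 151 and 14.2 in replicates 1 and 2 of the female label. At 1 week it read 76.0, 14.3 and 14.5 in replicates 1 to 3 of the male label and 184, 254 and 14.3 in replicates 1 to 3 labelled female. High and low arrays occurred at both ages. Without a filter the age difference was -0.07 ± 0.70 (limma, adjusted p = 0.956). Among the beta subunits that pair with it, Tshb, of thyrotropin, read 23.1 to 74.4 in 3 arrays at 8 weeks and 7.76 in replicate 2 labelled female, and at 1 week 32.5 to 111, with its 2 highest arrays there being replicates 2 and 1 labelled female, as for Cga. Fshb, of follicle-stimulating hormone, read at most 19.0 at 8 weeks and 17.2 at 1 week. Lhb, of luteinizing hormone, read 34.0 to 93.5 at 8 weeks and 82.3 to 112 at 1 week and did not pass (log2 -0.35 ± 0.18, limma, adjusted p = 0.137).

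The order of the arrays was much the same from hormone to hormone at 8 weeks. Replicate 1 labelled female was the highest of the 4 for 7 of the 8 measured members and the next highest for the other, Pomc. Replicate 1 labelled male was the highest for Pomc and the next highest for the other 7. The lowest was replicate 2 labelled female for 4 members and replicate 2 labelled male for the other 4. This order included the hypothalamic members, whose highest array at 8 weeks was likewise replicate 1 of the female label. Among them Trh read only 4.94 in that array and 4.71 in the next, near the bottom of the scale. How often genes at large took this order was not counted. At 1 week no such order held across all members. Gh, Pomc and Cga shared their 2 highest arrays, replicate 2 and then replicate 1 labelled female, and Gh and Pomc correlated at 0.91 over the 6 arrays. Prl was highest in replicate 2 labelled male, at only 23.7, and was near the bottom of the scale in all 6 arrays, so its order there carries little. Replicate 2 labelled female was the lowest of the 6 for Avp and Oxt.

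**Figure D2:**
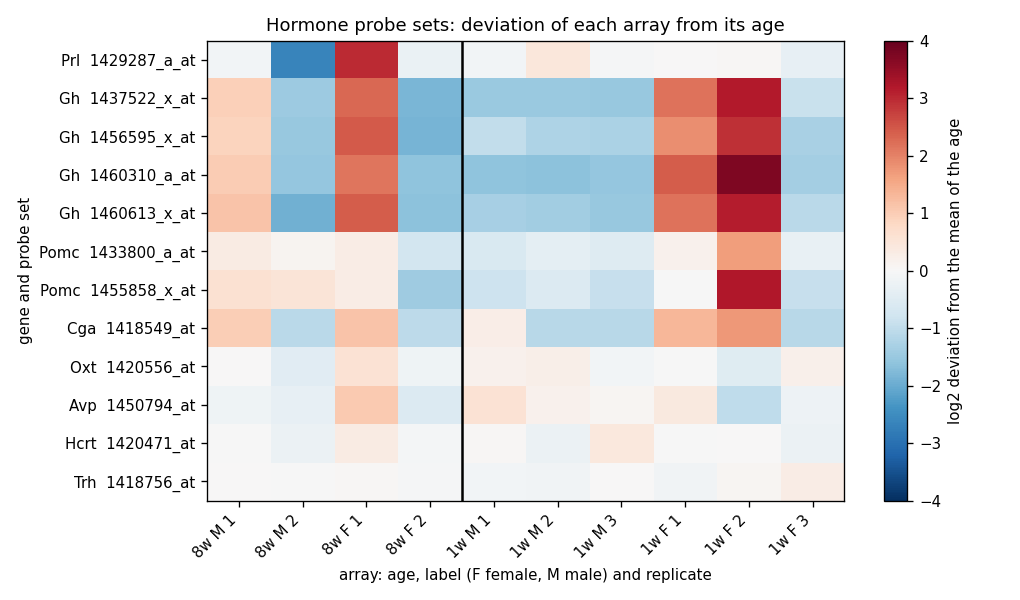
Deviation of each array from the mean of its age on the log2 scale (colour, from -4 to 4) for the 12 hormone probe sets (rows) in the 10 arrays (columns, 8 weeks left of the line). Replicate 1 of the female label at 8 weeks is above its age on all 12 probe sets, and replicates 1 and 2 of the female label at 1 week are above it on all 4 Gh probe sets, by 1.86 to 3.75.

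Prl and Gh were not high in the same 1-week arrays. Gh read 574 and 1473 at 1 week in replicates 1 and 2 of the female label, where Prl read 11.1 and 12.2. Where Gh lay at a like level at 8 weeks, 605 in replicate 2 labelled male and 576 in replicate 2 labelled female, Prl read 76.6 and 495. The log2 value of Prl minus that of Gh, which compares arrays and not the levels of the genes, was -2.67 and -2.64 in the 8-week arrays labelled male and -0.70 and -0.21 in replicates 1 and 2 of the female label. At 1 week Prl was near the bottom of the scale in all 6 arrays, where such a difference depends on the pseudocount, so none is given. These arrays are set side by side for their Gh level, so no test is given.

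**Figure D3:**
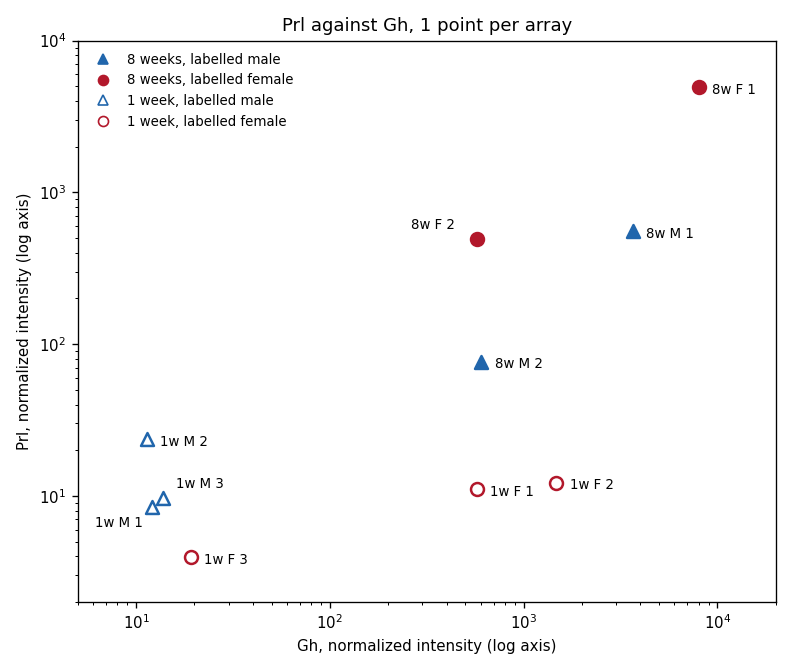
Prl against Gh, both as normalized intensity on log axes, 1 point per array, filled at 8 weeks and open at 1 week, triangles for arrays labelled male and circles for arrays labelled female. At Gh levels from 574 to 1473 the 2 open circles have Prl at 11.1 and 12.2, while the 8-week arrays at 576 and 605 have Prl at 495 and 76.6.

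Neither magnocellular peptide passed for age. Oxt, which acts in birth, milk release and social behaviour, read 593 and 421 in replicates 1 and 2 labelled male and 882 and 509.8 in replicates 1 and 2 of the female label at 8 weeks. At 1 week it read 640.3, 659 and 516 in the arrays of the male label and 554, 394 and 645 in those labelled female. The ages overlapped, and the difference was 0.05 ± 0.18, with a 95% interval from -0.36 to 0.45 (limma, adjusted p = 0.848). Avp, which regulates water balance and blood pressure, read 75.2 and 65.9 in replicates 1 and 2 labelled male and 210.2 and 52.4 in replicates 1 and 2 of the female label at 8 weeks. At 1 week it read 182, 131 and 120.3 in the arrays of the male label and 156, 43.3 and 94.7 in those labelled female. Apart from replicate 1 labelled female, the 8-week arrays lay below all 1-week arrays but replicate 2 labelled female. The difference was -0.28 ± 0.33, with a 95% interval from -1.01 to 0.44 (limma, adjusted p = 0.508). It moved with single arrays, to -0.68 ± 0.27 without replicate 1 labelled female at 8 weeks (limma, adjusted p = 0.0759) and 0.12 ± 0.27 without replicate 2 of that group (limma, adjusted p = 0.762), and it was 0.13 unscaled. Oxt and Avp are direct neighbours on chromosome 2 of GRCm38.p6, with no annotated gene between them. Their highest array at 8 weeks was the same, as was their lowest array at 1 week.

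Hcrt, the precursor of both orexins, which promote wakefulness and feeding, had the narrowest spread of the 6 members that passed the filter. It read 107 and 87.6 in replicates 1 and 2 labelled male and 142 and 99.3 in replicates 1 and 2 of the female label at 8 weeks, against 84.1 to 149 at 1 week. The difference was 0.04 ± 0.14, with a 95% interval from -0.28 to 0.35 (limma, adjusted p = 0.855). Trh, whose precursor yields several copies of the releasing peptide, read 3.49 to 4.94 at 8 weeks and 3.63 to 13.5 at 1 week and was under the filter. Such readings are near the bottom of the scale, and a difference in Trh was not detectable here.

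Of the 8 measured members 6 passed the filter, and Prl and Gh were higher at 8 weeks, 0 lower and 4 not called. Among all 8148 genes kept, 21.9% were higher and 24% lower, 45.9% in all. Prl alone of the members had ages that did not overlap, where 17.5% of all genes did not overlap and were higher at 8 weeks and 18.5% did not overlap and were lower. Prl passed the filter only through its 8-week levels, and Gh through those and 2 arrays at 1 week, so the count is a description and not support. Without any filter both were still called (limma, adjusted p = 0.00131 for Prl and 0.0193 for Gh). On the log2 scale Prl had a mean only just inside the filter, and when replicate 1 labelled female, replicate 2 of that group or replicate 1 labelled male was left out at 8 weeks it fell under it, which left 1 member called. On the probe sets of the full set of arrays it was called without any of the 10 arrays in turn, at 3.29 to 4.93 (limma, adjusted p from 7.05e-05 to 0.00135). A further setting took age alone as the model, without the 4 arrays at 1 week whose Xist and Eif2s3y went against the label. Both were called there too, Prl at 4.44 ± 1.23 (limma, adjusted p = 0.0306) and Gh at 5.58 ± 0.99 (limma, adjusted p = 0.00508). That setting left out both high Gh arrays at 1 week, at 574 and 1473, and kept those at 19.1 and 12.1. Its larger Gh difference is therefore no separate support. The median difference of the 6 members was 0.09, and that of all genes -0.02. Without scaling between arrays the median probe set differed by 0.47 and 5268 genes were higher to 364 lower, where the normalized values gave 1784 to 1958 and scaling to spike-in controls 1588 to 581. Unscaled, Oxt (0.59 ± 0.18, limma, adjusted p = 0.00725) and Hcrt (0.46 ± 0.16, limma, adjusted p = 0.0157) passed as well, so their steady level is relative to the whole distribution of intensities.

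**Figure D4:**
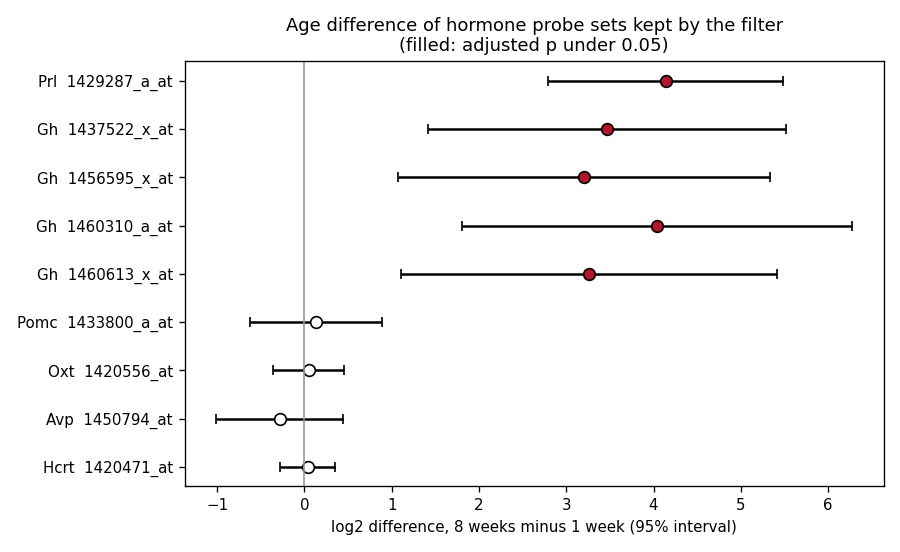
Log2 difference at 8 weeks minus 1 week with its 95% interval (x axis) for the 9 hormone probe sets kept by the filter (y axis), filled where the adjusted p was under the threshold. Prl (2.80 to 5.49) and all 4 Gh probe sets lie above 0, and the intervals of Pomc, Oxt, Avp and Hcrt span 0.

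Of the 6 members kept, arrays of the same age differed most in Gh and Prl. The SD of log2 values within ages was 2.24 for Gh, the widest of all 8148 genes, and 1.42 for Prl, which ranked 8. It was 0.74 for Pomc (rank 38), 0.63 for Avp (rank 61), 0.34 for Oxt (rank 433) and 0.25 for Hcrt (rank 1293), and the median gene had 0.16. Prl spread at 8 weeks, with an SD of 2.30 (rank 2), and far less at 1 week (0.25, rank 1344), where it was near the bottom of the scale. Gh spread at both ages, with 1.87 at 8 weeks (rank 6) and 2.43 at 1 week (rank 1). Pomc spread more at 1 week (0.86, rank 27) than at 8 weeks (0.50, rank 130). These are ranks in these arrays, given with no test.

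**Figure D5:**
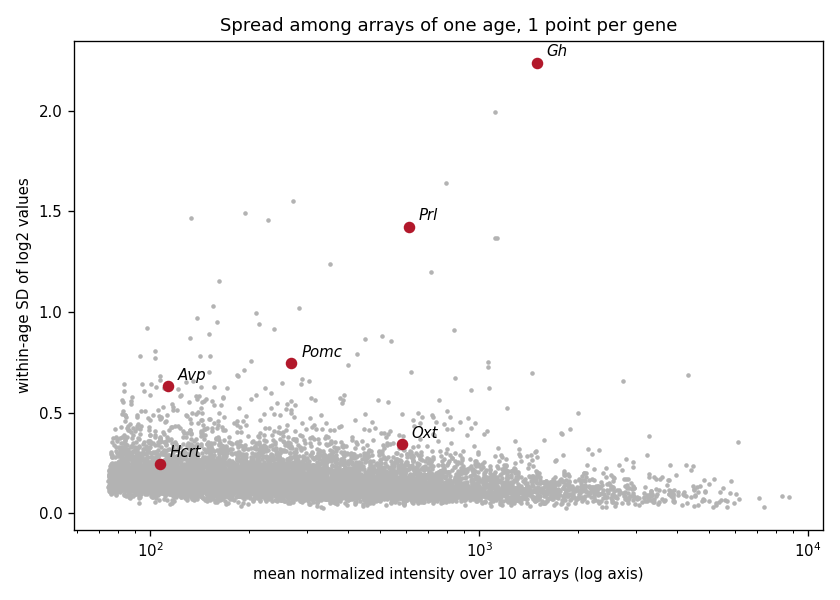
SD of log2 values among arrays of the same age (y axis) against mean normalized intensity (x axis, log) for 8148 genes in grey, with the 6 hormone genes kept by the filter in red. Gh has the widest spread at 2.24 and Prl follows at 1.42, while Hcrt is at 0.25 and the median gene at 0.16.

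The same arrays differed in markers of other tissue. The list for pituitary cells other than the members had 14 of 17 genes measured and none at 0. At 8 weeks its sum was 926 and 883 in replicates 1 and 2 labelled male. It was 1049 and 774 in replicates 1 and 2 of the female label, and by this sum the arrays fell in the order of Gh. The list's 4 genes kept by the filter each took another order at 8 weeks, while some under the filter, such as Tshb, took that of Gh. At 1 week the sum was 798 to 1111, lowest in replicate 2 labelled female, where Gh, Pomc and Cga were highest. Of the 4 genes of this list kept, 0 were higher and 0 lower at 8 weeks, while unscaled values gave 3 higher. Several of these, such as Gata2 and Isl1, are also made in brain, and Pou1f1 was not among those measured. Among 11 of 14 cerebellar genes the sum was 5549 and 20765 in replicates 1 and 2 labelled male and 13620.0 and 13313 in replicates 1 and 2 of the female label at 8 weeks, and 2695 to 8525 at 1 week, and 7 of 11 kept were higher at 8 weeks. Replicate 2 labelled male, the highest in cerebellar genes, was the lowest in Prl, while both arrays labelled female had nearly equal cerebellar sums and Prl levels of 4909 and 495. The sum of 8 of 11 choroid plexus genes was lowest in replicate 1 of the female label at 8 weeks, at 4094 against 8529 to 9314 in the other 3, and 5242 to 6504 at 1 week. Genes of meninges and connective tissue, 11 of 11 measured, summed to 1500.5 to 1930 at 8 weeks and to 3130.1 to 10974 at 1 week, with 5 of 8 kept lower at 8 weeks. Beside these list counts, 21.9% of all genes kept were higher and 24% lower. The 3 of 4 pineal genes measured summed to 129 to 177 at 8 weeks and to 147 to 209 at 1 week. The part of any of these tissues in the hormone values was not tested.

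Between sex labels, compared at 8 weeks, the largest difference of a member was that of Prl. Its 2 arrays of the male label read 556 and 76.6 and its 2 of the female label 4909 and 495. The difference was -2.73 ± 0.94 for male minus female on the log2 scale and did not pass, with a 95% interval from -4.81 to -0.64 (limma, adjusted p = 1). The labels overlapped, since replicate 1 labelled male was above replicate 2 labelled female. Gh differed by -0.53 ± 1.56 (limma, adjusted p = 1), Oxt by -0.41 ± 0.28, Avp by -0.50 ± 0.50, Hcrt by -0.24 ± 0.22 and Pomc by 0.45 ± 0.53, and 0 of these passed. Of all 8148 genes 0 passed at 8 weeks (0%), with 195 at an unadjusted p under 0.05 in limma, and Xist, at -3.32 ± 0.84 (limma, adjusted p = 1), was not among those called. Xist itself read 131 and 134 in the 8-week arrays of the male label and 1676 and 1405 in those of the female label. The standard error is shared with the 1-week groups, each of which held Xist levels far apart, at 293 to 1664 under the male label and 163 to 866 under the female label. The difference in age effect between labels passed for 0 genes (0%), with 407 at an unadjusted p under 0.05. It was largest for Prl among members, at -2.91 ± 1.21 for male minus female (limma, adjusted p = 0.857), and rests on labels that the 1-week arrays did not bear out.

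Genes that cut and pack prohormones were higher at 8 weeks in part, and 0 were lower. Of 13 measured genes for processing and the secretory granule 12 were kept, with 7 higher, 0 lower and 5 not called at 8 weeks. Among all genes kept 21.9% were higher and 24% lower. The median difference of the list was 0.34, against -0.02 for all genes. Chgb, a granin that helps form granules, averaged 2904 ± 340 at 8 weeks and 1478 ± 94.3 at 1 week (SD, n = 4 and 6) and rose by 0.96 ± 0.09 (limma, adjusted p = 2.38e-05). Cadps2, which primes granules for release, rose by 0.68 ± 0.22 (limma, adjusted p = 0.0266). At 8 weeks it read 624 and 1099.8 in replicates 1 and 2 labelled male and 914 and 783 in replicates 1 and 2 labelled female, the same order of arrays as the sum of cerebellar genes, which were also higher at 8 weeks. At 1 week both were lowest in replicate 1 labelled male but highest in different arrays, and the part of cerebellum in this rise was not tested. Ptprn2, a granule membrane protein, rose by 0.63 ± 0.12 (limma, adjusted p = 0.00216). Scg3, a granin of the granule membrane, rose by 0.45 ± 0.08 (limma, adjusted p = 0.00116). These 4 genes were called under median scaling, spike-in scaling and no scaling as well, where the list had 6, 6 and 12 genes higher and 0 lower. Without scaling, 5268 of all genes were called higher and 364 lower, so the last count is no separate support. Summed over the list, the 4 arrays at 8 weeks lay between 16538 and 17047 and the 6 at 1 week between 12632 and 13701, a narrow range within each age. These genes work in neurons throughout the brain as well as in the pituitary. Pcsk1, a convertase that cuts Pomc, was under the filter, at 111 ± 22.9 at 8 weeks and 37.7 ± 25.6 at 1 week (SD, n = 4 and 6).

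Other hypothalamic peptides went both ways, with most not called. Of 12 measured 8 were kept, with 1 higher, 1 lower and 6 not called, and a median of -0.19. For this and the next lists, the shares among all genes kept were 21.9% higher and 24% lower. Nts, neurotensin, a peptide that modulates dopamine neurons, averaged 176 ± 31.8 at 8 weeks and 394 ± 62.3 at 1 week (SD, n = 4 and 6) and fell by 1.07 on the log2 scale (SE 0.14, limma, adjusted p = 1.60e-04). Cartpt, a peptide that curbs feeding, rose by 0.29 ± 0.11 (limma, adjusted p = 0.0479). Of 12 measured transcription factors of hypothalamic development 5 were kept, and Arnt2, the partner of Sim1 in forming Oxt and Avp neurons in mouse, rose by 0.26 ± 0.09 (limma, adjusted p = 0.0403). Sim1 itself did not pass, at -0.0015 ± 0.087. Of 14 measured receptors and binding proteins for these hormones 6 were kept, with 0 higher, 1 lower and 5 not called. Avpr1a, the vasopressin receptor most used in brain, averaged 56.5 ± 6.21 at 8 weeks and 96.9 ± 24.96 at 1 week (SD, n = 4 and 6) and fell by 0.56 on the log2 scale (SE 0.15, limma, adjusted p = 0.00988). Ghr, the growth hormone receptor, was 0.03 ± 0.07 and Crhr1, the main receptor for corticotropin-releasing hormone, 0.09 ± 0.14, and neither passed. Directions in these lists are relative to the whole distribution. Scaled to spike-in controls or left unscaled, Nts kept its call, while Avpr1a lost its call (-0.44 ± 0.20, limma, adjusted p = 0.087, and -0.17 ± 0.16, limma, adjusted p = 0.337). Cartpt and Arnt2 lost theirs with spike-in scaling (limma, adjusted p = 0.0824 and 0.118), though their differences were larger there, at 0.44 and 0.41. That scaling gave all genes the same standard error of 0.20. Both were called without scaling (0.77 ± 0.16 and 0.72 ± 0.13, limma, adjusted p = 3.89e-04 and 1.34e-04). The median of the peptide list turned to 0.33 unscaled. Unscaled, Ghr (0.49 ± 0.13, limma, adjusted p = 0.00275) and Crhr1 (0.61 ± 0.16, limma, adjusted p = 0.00314) passed, and 3 receptors were higher and 0 lower.

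The genes most like each member were those with the highest Pearson correlation of deviations from the age mean over the 10 arrays, among 8148 genes. For Prl they were Inava, Marcksl1, Pgrmc1, Ctu1 and Zeb2 (r from 0.91 to 0.95), and for Gh they were Zfp932, Myef2, Ints8, Glul and Sumo3 (r from 0.87 to 0.91). For Pomc they were Htatsf1, Ngp, Rpl27a, Las1l and Zfp617 (r from 0.86 to 0.91). For Avp they were Vhl, Nos1, Limd2, Rgs9 and Rpl12 (r from 0.93 to 0.96), for Oxt Dtnbp1, Mycl, Sspo, Pgrmc1 and Gria3 (r from 0.91 to 0.97), and for Hcrt Map2k6, Trappc13, Cbl, Rpl41 and B4galt3 (r from 0.87 to 0.93). The spread of the genes most like Prl, with SDs of 0.10 to 0.28, and of those most like Gh, 0.096 to 0.48, was a fraction of the 1.42 and 2.24 of these hormones. None of the 6 members kept was among the 5 most like another, although Gh and Pomc correlated at 0.86, just under the fifth gene of Pomc, and Avp and Oxt at 0.83. Cga and Trh, under the filter, were not compared. These are the highest of many correlations over the same 10 arrays and are given as a description.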

How the data were processed

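Brain RNA was measured on 10 arrays. The deposited values are linear intensity readings, 1 per probe set and array, and the authors' summary software is not given in the sources used here. Of 22690 probe sets, 64 array controls were set aside. After quantile normalization a pseudocount of 24.2, which is the 20th percentile of the deposited table, was added and log2 taken. Probe sets dimmer on average than the 40th percentile (73.9) were dropped, leaving 13576. The annotation named a single symbol for 20380 probe sets, several for 691 and none for 1555. The brightest probe set stood for each of 8148 genes.

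Differences were estimated with limma 3.58.1 (lmFit, eBayes) in R 4.3.3 over all probe sets kept, with a mean for each age and sex label. P-values are two-sided and Benjamini-Hochberg adjusted, with a threshold of 0.05, and intervals are at 95%. The pipeline was tested on simulated data. Named genes were all members, up to 4 genes called in each direction from each list of related genes, by size (lists of other tissue are given as counts and sums), the 5 genes most like each member, Lhb, Fshb, Tshb and Pou1f1, and Xist and Eif2s3y. Pcsk1, Sim1, Ghr, Crhr1, Gata2 and Isl1 were chosen after their values were seen. The members, the 9 lists and the tests were chosen with earlier results of these data known. The number of arrays limits the precision. Alternatives were other scalings, pseudocounts, filters, models, gene summaries and arrays left out.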

Additional observations from a re-analysis of the deposited data

Results flagged for a closer look

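For the 8 measured members at each age, the gap from the highest or the lowest array to its nearest neighbour was set, on log2(intensity + 24.2), against Dixon's critical value, and it was exceeded in 1 group. Pomc read 763 in replicate 2 labelled female at 1 week, against 254 in the nearest array, a gap of 0.662 of the range on that log2 scale where the critical value is 0.625. Gh (1473) and Cga (254) were also highest of their age in that array, and Avp (43.3) and Oxt (394) were lowest. The outcome depends on the scale: on intensities, a scale added after seeing the data, 4 groups exceeded the value, namely Pomc (0.816) and Hcrt (0.633) at 1 week and Prl (0.901) and Avp (0.856) at 8 weeks, each at the highest array. Chance flags about 1 in 20 groups, and 16 groups were examined.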

How the results depend on the processing

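Of 391 member values under other settings in which the gene was tested, 386 kept their call, 5 gained one and 0 lost one or reversed. Settings in which a gene fell under the filter are not counted. For Prl the count includes settings added after seeing the data. Members called higher at 8 weeks numbered 2, against 4 on unscaled values and 1 with a pseudocount of 1 or the 60th percentile filter, where Prl fell under the filter. On the probe sets first kept, settings added after seeing the data, a pseudocount of 1 gave 2 and Prl at 5.67 ± 0.73. With arrays left out in turn the count was 1 to 2. Genes called lower for age numbered 1958, against 364 unscaled, 581 scaled to spike-in controls and 1155 with age alone and without the 4 arrays that opposed their label. Genes called higher numbered 1784, against 5268 unscaled. Spike-in scaling gave a shared standard error for all genes, with 11 genes lower for the male label at 8 weeks and 10 for the interaction, Prl among both (-2.59 and -2.83) and Gh in the interaction (2.80), where the main analysis had 0. With arrays left out, the sex label gave 0 to 1 higher and the interaction 0 to 1. The labels do not say whether replicate numbers pair the samples, and the main model did not pair them. Deviations of 13 same-numbered pairs correlated from -0.03 to 0.19, 5 of them over 0.1. Pairs of different numbers ran from -0.18 to 0.18. Deviations were taken from the mean of each age and label, so the arrays of an 8-week label mirror each other. Many pairs of different numbers thus repeat a same-numbered value with its sign turned, and their range is no baseline. With the number as a replicate block, 1696 genes were higher and 1830 lower, with Prl at 4.05 ± 0.57 and Gh at 3.31 ± 0.95, and no member's call changed. Without detection calls, readings near the bottom of the scale (Trh, Prl at 1 week) limit what can be said, and the size of the Prl difference depends on the pseudocount (2.78 with 100).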
